A study of Mus musculus with 8 samples.

Results

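The genes of the proteasome were followed in the tibialis anterior, the shin muscle, made mostly of fast fibres, in 4 mice that had received Porphyromonas gingivalis by mouth and in 4 control mice. The members were chosen by name: every non-control probe of the array whose gene name starts with Psm, a letter from a to g and a digit. This gave 49 genes on 94 probes, of 24892 named genes and 56605 probes on the array. Of these, 47 genes on 86 probes were bright enough to be tested, and the probe chosen for each of the 47 was well above background on all 8 arrays. Psma8, an alpha subunit of the testis, and Psmb11, a catalytic subunit of the thymus, were well above background on 0 of the 8 arrays, as was a second probe of Psmb9. The name rule also takes Psmc3ip, which encodes a partner of meiotic recombinases and no proteasome subunit, so its values are described apart. Counts over the 47 include it, and without it 14 of 46 genes stood higher and 32 lower in P. gingivalis muscle, with a median log2 change of −0.05.

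All mice were male C57BL/6J, 14 weeks old and on the diet that the labels call High-fat diet 32. The P. gingivalis mice were given cells of this bacterium of the periodontal pocket, live or killed not stated, in 100 µL of saline through a feeding needle, over 6 weeks from the age of 8 weeks. The controls carry the label control, and what they were received through the needle, if anything, is not given in the sources used here, nor is the bacterial dose. The protocol assigns the bacteria to groups called NCAa and HFAa, names that no sample title uses. Each sample was taken as coming from a mouse of its own, as the labels imply but do not write.

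The proteasome is the barrel-shaped protease that degrades proteins tagged with ubiquitin. Its core particle is built of alpha subunits (Psma), which form the gate, and beta subunits (Psmb), of which Psmb5, Psmb6 and Psmb7 carry the cutting sites. A regulatory particle of ATPases (Psmc) and non-ATPase subunits (Psmd) recognises, unfolds and feeds in the tagged protein. Interferon gamma is known to replace the cutting subunits with Psmb8, Psmb9 and Psmb10, which gives the immunoproteasome that makes peptides for antigen presentation. In skeletal muscle the ubiquitin and proteasome system takes down contractile proteins, and many of its genes are known to rise together during wasting.

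The array labels carried a conflict that bears on every direction below. The deposited table of processed values gives 4 of the 8 arrays the opposite group: matched by their values, only control 1, control 2, P. gingivalis 3 and P. gingivalis 4 hold the same group in both sources. Groups here are those of the scanner files, and results with the table's groups are set beside the main ones. By the scanner files the P. gingivalis arrays filled row 2 of the single slide and the controls row 1. The row of the slide thus cannot be told apart from the group. By the table's groups the controls filled columns 1 and 2 and the P. gingivalis arrays columns 3 and 4. There it is the column that cannot be told apart from the group. Before scaling, the 75th percentile of signal was 238 to 255 in the P. gingivalis arrays and 275 to 306 in the control arrays. Each array had 56.3% to 59.3% of its spots well above background, and 0 were saturated. The 6 fast fibre markers looked for (Acta1, Ckm, Myh4, Myh1, Tnnt3 and Mylpf) were well above background on all 8 arrays.

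No proteasome gene differed between the groups by limma's test after adjustment over all 31649 tested probes (lowest adjusted p 0.443), and 0.0% of all genes did. At an unadjusted p under 0.05 there was 1 of 47, Psme1, lower in P. gingivalis muscle. Among all 16037 genes tested, 10.7% had such a p (4.86% higher and 5.83% lower), so the members' share lay below the background. Of the 47 members 15 stood higher and 32 lower in P. gingivalis muscle, with log2 changes from −0.50 to 0.17 and a median of −0.04. Across all genes 45.7% stood higher and the median was −0.01. Scaling each array by the median of its tested probes instead gave 21 higher and 26 lower, with a median of −0.02. The median of all genes also moved up under that scaling, to 0.01. With the value table's groups 8 members were higher and 39 lower, with a median of −0.05, against −0.01 for all genes. Groups did not overlap for 3 members, Psmb4, Psmd3 and Psmg3, each lower in P. gingivalis muscle. The share of all genes without overlap was 7.06%, made up of 3.24% with P. gingivalis above control and 3.83% with P. gingivalis below it.

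**Figure D1:**
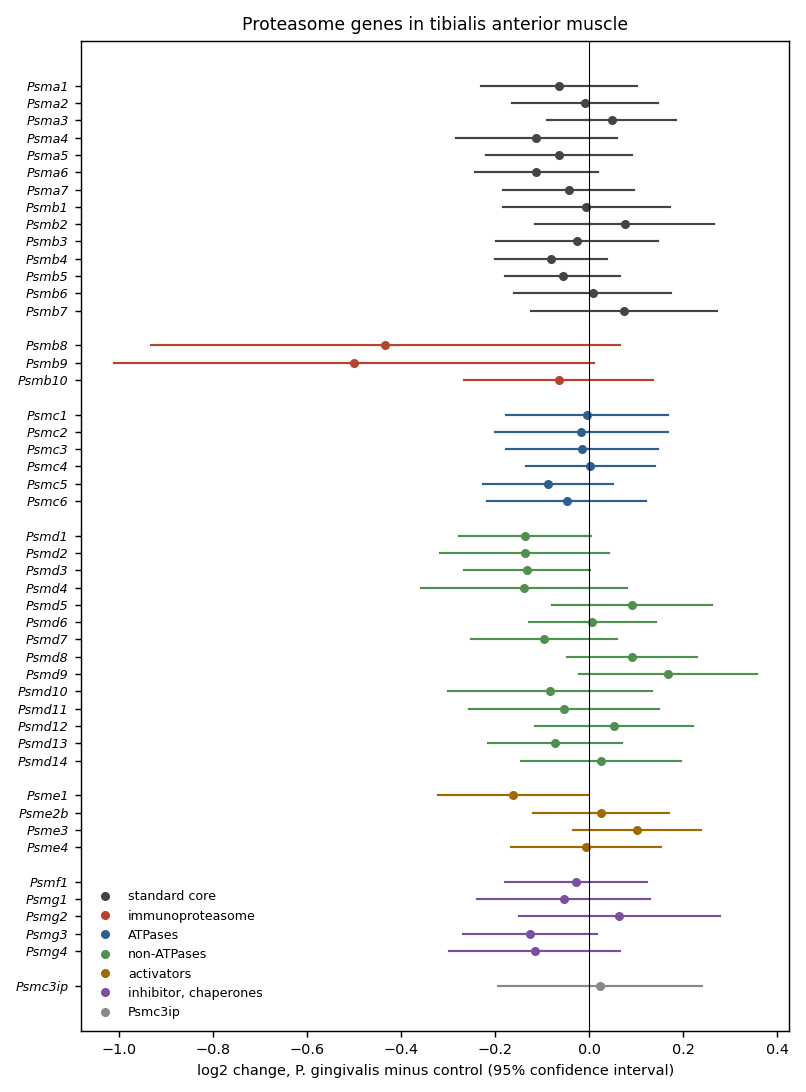
Log2 change of signal (P. gingivalis minus control, x axis) for the 47 tested members (Psmc3ip included), grouped by class. Points are limma estimates from 4 arrays each and lines are 95% confidence intervals. All but Psmb8 and Psmb9 lie between −0.16 and 0.17, and only the interval of Psme1 leaves out 0.

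The standard core stood at nearly the same signal in both groups. Of its 14 genes 4 were higher and 10 lower, with changes from −0.11 to 0.07 and a median of −0.04. The 95% intervals of all 14 lay between 0.821-fold and 1.21-fold, so larger differences in either direction fell outside them. Of the 7 alpha subunits, 6 were lower and only Psma3 higher, while the 7 standard beta subunits split into 3 higher and 4 lower. Under the median scaling the core split into 6 higher and 8 lower. With the value table's columns matched to the scanner files it split into 8 higher and 6 lower. It leaned lower in others: 1 higher and 13 lower with the mean of all probes of a gene, and 2 higher and 12 lower with the value table's groups. On the 4 arrays agreed on, 3 were higher and 11 lower. The balance thus moved with the setting, and no direction is read from it.

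The cutting subunits are the members that the immunoproteasome replaces. Psmb5, which cuts after hydrophobic residues, gave log2 signals relative to the array's 75th percentile of 5.15, 5.12, 5.14 and 5.17 in P. gingivalis muscle, against 5.18, 5.25, 5.22 and 5.16 in control muscle. These groups overlapped at 1 control array, and Psmb5 varied less between mice than all but 2.31% of the genes of like signal. Psmb6, which cuts after acidic residues, had 6.78, 6.59, 6.59 and 6.53 in P. gingivalis muscle and 6.69, 6.62, 6.62 and 6.53 in control muscle. The high array was P. gingivalis 1, which lay above every control array, while the other arrays overlapped (log2 change 0.01, adjusted p = 0.983 by limma). Psmb7, which cuts after basic residues, had 5.29, 5.34, 5.28 and 5.54 in P. gingivalis muscle and 5.36, 5.36, 5.31 and 5.12 in control muscle. P. gingivalis 4 was the highest array and control 4 the lowest, with the other 6 between 5.28 and 5.36.

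Psmb4 is a beta subunit without a cutting site that takes part in joining the rings of the core. It had 6.01, 6.01, 5.94 and 5.96 in P. gingivalis muscle, against 6.08, 6.05, 6.06 and 6.07 in control muscle. Every P. gingivalis array lay below every control array, though the distance was small (log2 change −0.08 ± 0.05, SE, adjusted p = 0.581 by limma). Its dimmer probe had a log2 change of −0.07 with groups that overlapped, and with the value table's groups the brighter probe stood at −0.03. Psma6, an alpha subunit, had 5.78, 5.76, 5.72 and 5.73 in P. gingivalis muscle and 5.91, 5.88, 5.88 and 5.77 in control muscle. Control 4 lay among the P. gingivalis arrays, and Psma6's other probe went the other way (−0.11 and 0.07).

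**Figure D2:**
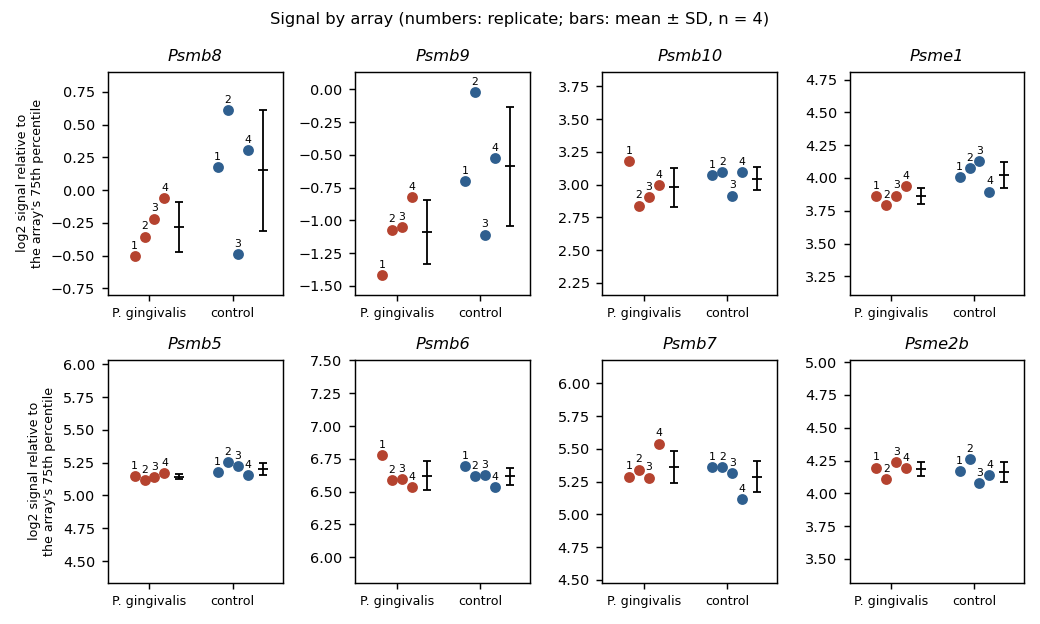
Log2 signal relative to the array's 75th percentile (y axis, the same span in every panel) for 8 genes, P. gingivalis arrays left and control arrays right. Points are arrays, numbered by replicate, and bars are the mean ± SD of 4 arrays. Psmb8 and Psmb9 spread widely, with control 3 among the P. gingivalis arrays, while Psmb5 and Psmb6 lie close together.

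Of all the tested members, the immunoproteasome subunits Psmb8 and Psmb9 had the widest spread between mice. Psmb8, which takes the place of Psmb5, and Psmb9, which takes that of Psmb6, lie together with Tap1 and Tap2 in the major histocompatibility complex. Since they are paralogues of the standard subunits, the probes are shown to let the pairs be told apart. Capitals mark the longest run that the aligned probes of a pair share. Coordinates are those of the file's mm9 build, each probe reads through an open frame, and each is written on its gene's strand.
Psmb8 probe, chr17:34337771-34337830 on the plus strand: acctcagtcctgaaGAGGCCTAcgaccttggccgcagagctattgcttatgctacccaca
Psmb5 probe, chr14:55233161-55233220 on the minus strand: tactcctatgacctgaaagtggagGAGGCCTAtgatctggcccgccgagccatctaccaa
Psmb9 probe, chr17:34319174-34319233 on the minus strand: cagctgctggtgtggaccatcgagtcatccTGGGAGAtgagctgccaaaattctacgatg
Psmb6 probe, chr11:70341014-70341073 on the plus strand: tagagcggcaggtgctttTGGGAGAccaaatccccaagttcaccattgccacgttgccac
The Psmb8 and Psmb5 probes matched at 31 of 50 aligned bases, with a longest shared run of 8. The Psmb9 and Psmb6 probes matched at 27 of 48 aligned bases, with a longest shared run of 7. Each probe shown was chosen as the tested probe with an open frame nearest its transcript's start. For Psmb6 this is the dimmer of its pair of probes.

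Psmb8 had log2 signals of −0.50, −0.35, −0.22 and −0.06 in P. gingivalis muscle, against 0.17, 0.61, −0.49 and 0.31 in control muscle. Controls 1, 2 and 4 lay above all P. gingivalis arrays, and control 3 lay below all but P. gingivalis 1. The means were −0.28 ± 0.19 in P. gingivalis and 0.15 ± 0.46 in control muscle (SD, n = 4 each), a 0.740-fold signal with a 95% interval of 0.524 to 1.05 (adjusted p = 0.488 by limma). Psmb9 had −1.42, −1.07, −1.05 and −0.82 in P. gingivalis muscle and −0.70, −0.02, −1.11 and −0.53 in control muscle. The order of the arrays was the same as for Psmb8, with control 3 again between P. gingivalis 1 and 2. The signal was 0.707-fold in P. gingivalis relative to control muscle, with an interval of 0.496 to 1.01 (adjusted p = 0.450 by limma). Psmb10, which takes the place of Psmb7, had 3.18, 2.84, 2.91 and 2.99 in P. gingivalis muscle and 3.07, 3.10, 2.92 and 3.09 in control muscle. P. gingivalis 1, the lowest array for Psmb8 and Psmb9, was the highest for Psmb10, and the group means differed by −0.07 on the log2 scale.

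The differences of Psmb8 and Psmb9 depended on single arrays. Control 3 was the only control array among the P. gingivalis arrays for both genes, so leaving it out had to end the overlap. Without control 3 the log2 changes were −0.65 for Psmb8 (unadjusted p = 0.00217, adjusted p = 0.265 by limma) and −0.67 for Psmb9 (unadjusted p = 0.00936, adjusted p = 0.282 by limma). These p-values come after dropping the array that went against the difference, so nothing is concluded from them. On those 7 arrays 11.8% of all genes had an unadjusted p under 0.05 and 13.3% had groups that did not overlap, against 3 and 7 of the 47 members. Without control 2, the highest array for both genes, the log2 changes were −0.28 for Psmb8 (unadjusted p = 0.204 by limma) and −0.31 for Psmb9 (unadjusted p = 0.122 by limma). With the groups of the value table Psmb8 averaged −0.12 in P. gingivalis and −0.02 in control muscle, and Psmb9 −0.88 in P. gingivalis and −0.80 in control muscle. Under that grouping 3.52% of all genes had an unadjusted p under 0.05, against 1 of the 47 members, and 2.43% had groups that did not overlap, against 2 of the 47.

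The within-group SD was 0.353 for Psmb8, larger than in 97.7% of 1701 genes of like signal, whose median was 0.118. For Psmb9 it was 0.363, larger than in 96.8% of 1605 genes of like signal (median 0.136). The other 45 tested members had within-group SDs of 0.0274 to 0.136, with a median of 0.0882. These 2 genes were picked out for this comparison with the values in view, so it is a description of these 8 mice.

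**Figure D3:**
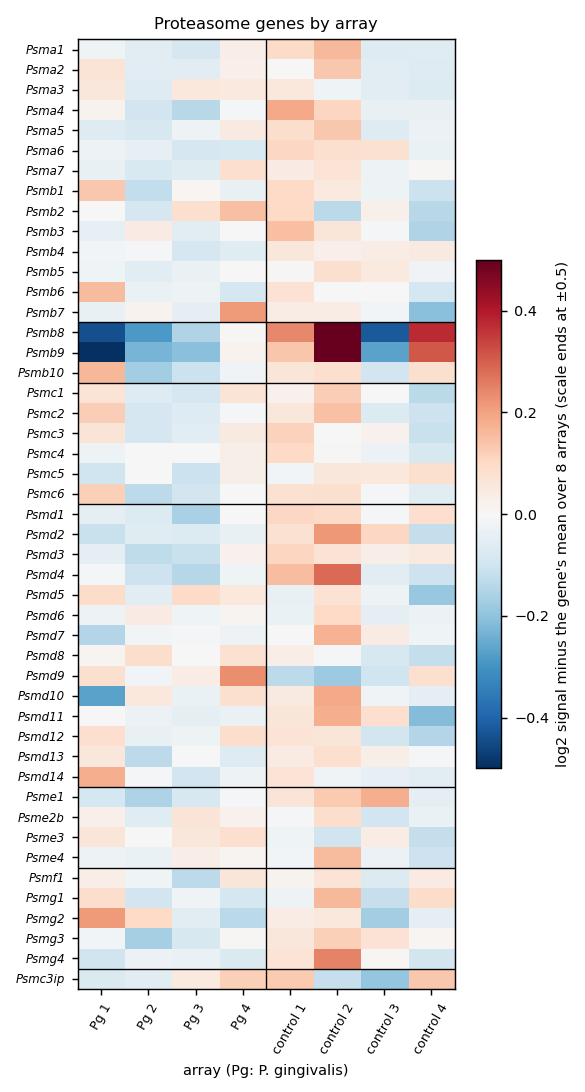
Log2 signal of each tested proteasome gene minus its mean over the 8 arrays (colour, scale ends at ±0.5), with genes in rows by class and arrays in columns, P. gingivalis (Pg) left and control right. Most rows are pale throughout. The rows of Psmb8 and Psmb9 are deep red in control 2 and blue in P. gingivalis 1 and control 3.

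The signals of Psmb8 and Psmb9 followed each other over all 8 arrays with r = 0.968 (exact permutation p = 2.48e-05, adjusted p = 3.97e-04) and rho = 1 (exact permutation p = 4.96e-05). These two-sided p-values rest on all 40320 pairings of the arrays, which can give no smaller p for r. The partner genes were chosen with earlier results of these data known, 16 relations were computed, and adjusted values are Benjamini-Hochberg over the 16. Without the arrays farthest from the median, control 2 and control 4, r for Psmb9 was 0.914, and after removing the group means from all 8 arrays it was 0.952. A group of 4 is too small for an r of its own. All 8 arrays share a slide and a scan but differ in their position on the slide. Part of any relation may come from position, which was not tested.

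For some genes of antigen presentation the relation with Psmb8 passed the test after adjustment, and for others it did not. Tap2, which encodes a chain of the peptide transporter into the endoplasmic reticulum, had r = 0.939 (exact permutation p = 7.69e-04, adjusted p = 0.00615) and rho = 0.952 (exact permutation p = 0.00114, adjusted p = 0.00913), with r = 0.871 without control 2 and control 4. Irf1, a transcription factor induced by interferon, had r = 0.912 (exact permutation p = 0.00223, adjusted p = 0.0119) and rho = 0.810 (exact permutation p = 0.0218, adjusted p = 0.0871), with r = 0.761 without those arrays. Nlrc5, the transactivator of class I presentation genes, had r = 0.868 (exact permutation p = 0.00437, adjusted p = 0.0175), and r = 0.733 without those arrays. Its rho was 0.905 (exact permutation p = 0.00456, adjusted p = 0.0243). The Nlrc5 probe used was dim, with log2 signals of −4.45 to −2.61. The other Nlrc5 probe went the other way in log2 change between the groups (0.17 against −0.69). The relation with Tap1, the other chain of the transporter, rested on control 2 and control 4: r was 0.783 with all arrays (exact permutation p = 0.0143, adjusted p = 0.0456; rho = 0.786, exact permutation p = 0.0279, adjusted p = 0.0894) and 0.112 without them. Tapbp, which edits the peptides loaded onto class I molecules, did not pass after adjustment (r = 0.738, exact permutation p = 0.0378, adjusted p = 0.0863; rho = 0.643, exact permutation p = 0.0962, adjusted p = 0.257), and its r was −0.01 without those arrays.

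Apart from Psmb9, no proteasome gene compared with Psmb8 had a relation that passed the test at this number of arrays. Against Psmb8, r was 0.412 for Psmb10, 0.470 for Psmb5, −0.327 for Psmb6 and −0.06 for Psmb7. Psme1 had r = 0.315 and Psme2b r = 0.470. B2m, the light chain of class I molecules, had r = 0.490 on a probe with a log2 change of 0.04, while its other probe stood at −0.41. The peptide trimming enzyme Erap1 had r = 0.267 and the leukocyte marker Ptprc r = 0.291. None of these 9 had an exact permutation p under 0.05 before adjustment, with the lowest at 0.218 for r and 0.268 for rho. After removing the group means from all 8 arrays, however, r was 0.742 for Psme2b and 0.728 for B2m, against 0.764 for Tap1, so a p above the threshold does not show that these genes ran apart from Psmb8.

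**Figure D4:**
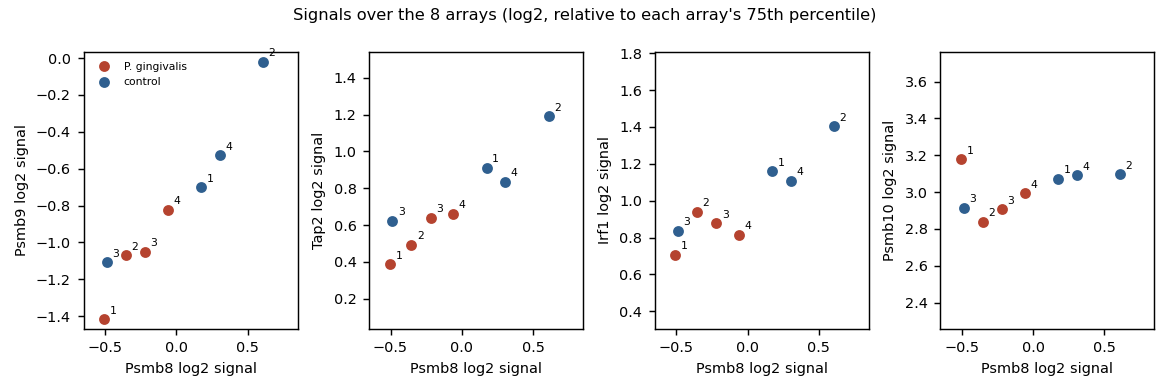
Log2 signals of Psmb9, Tap2, Irf1 and Psmb10 (y axes) against that of Psmb8 (x axis) over the 8 arrays, all relative to each array's 75th percentile. P. gingivalis arrays are red and control arrays blue, numbered by replicate. Psmb9, Tap2 and Irf1 climb with Psmb8, while Psmb10 is highest in P. gingivalis 1, where Psmb8 is lowest.

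The windows around the gene starts are shown for Psmb8 and Psmb9, whose signals moved together, and for Psme1. They come from RefSeq on build GRCm38.p6, 250 bases before to 50 after the start, written on the gene's strand. Capitals mark, in Psmb8, a match to the gamma interferon activation site, in Psmb9, the bases between its start and that of Tap1, and in Psme1, a match to the interferon-stimulated response element.
Psmb8, chr17:34197945-34198244 on the plus strand: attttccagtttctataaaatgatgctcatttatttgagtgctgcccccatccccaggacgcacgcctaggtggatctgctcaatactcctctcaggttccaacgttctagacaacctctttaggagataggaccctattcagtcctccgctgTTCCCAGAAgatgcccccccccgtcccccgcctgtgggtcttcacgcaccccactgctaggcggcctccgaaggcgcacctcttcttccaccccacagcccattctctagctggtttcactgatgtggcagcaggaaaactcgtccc
Psmb9, chr17:34187281-34187580 on the minus strand: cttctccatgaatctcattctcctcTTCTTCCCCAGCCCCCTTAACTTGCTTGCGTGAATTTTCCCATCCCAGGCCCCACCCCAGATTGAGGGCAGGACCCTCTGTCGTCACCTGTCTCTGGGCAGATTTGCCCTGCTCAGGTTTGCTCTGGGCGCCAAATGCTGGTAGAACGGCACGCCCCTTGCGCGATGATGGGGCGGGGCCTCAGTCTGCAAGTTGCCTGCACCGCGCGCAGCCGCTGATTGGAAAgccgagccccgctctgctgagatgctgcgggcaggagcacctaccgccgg
Psme1, chr14:55578244-55578543 on the plus strand: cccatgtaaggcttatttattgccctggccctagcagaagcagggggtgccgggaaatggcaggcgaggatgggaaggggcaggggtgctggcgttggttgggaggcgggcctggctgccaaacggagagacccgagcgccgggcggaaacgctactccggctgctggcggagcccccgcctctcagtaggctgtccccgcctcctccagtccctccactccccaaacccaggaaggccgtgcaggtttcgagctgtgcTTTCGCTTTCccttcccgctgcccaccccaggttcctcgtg
Psmb9 and Tap1 face away from each other with starts 226 bases apart, so their windows share 275 bases. Against Psmb8, r was 0.968 for Psmb9 and 0.783 for Tap1. The part of the shared bases in these relations was not tested. The match in Psmb8 begins 97 bases before the start, and that in Psme1 lies in the bases after the start.

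The windows were searched on both strands for the letters of 3 motifs. The interferon-stimulated response element (GAAANNGAAA) was found in 5 of 42 windows of 40 member genes, or 11.9%, against 3.44% of all 32851 windows, and the genes were Psmb3, Psmd4, Psmd9, Psme1 and Psmg4. The gamma interferon activation site (TTCNNNGAA) was in 3 windows, those of Psmb8, Psmd2 and Psmg1, or 7.14% against 8.30% of all. The antioxidant response element (TGACNNNGC), which the stress factor encoded by Nfe2l2 binds, was in 6 windows, or 14.3% against 12.4% of all, among them those of Psmb5 and Psmb6. Psmb9 and Psmb10 held none of the 3 in these windows.

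The activators open the gate of the core without the ATPases. Psme1 encodes a chain of the activator ring that interferon gamma induces. It had 3.86, 3.79, 3.87 and 3.94 in P. gingivalis muscle, against 4.01, 4.07, 4.13 and 3.90 in control muscle. Controls 1, 2 and 3 lay above all P. gingivalis arrays, while control 4 lay below P. gingivalis 4. The means were 3.86 ± 0.06 in P. gingivalis and 4.03 ± 0.10 in control muscle (SD, n = 4 each), a 0.893-fold signal with an interval of 0.800 to 0.998 (unadjusted p = 0.0468, adjusted p = 0.443 by limma). Under the value table's groups Psme1 turned, to a log2 change of 0.02.

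The other chain of that ring gave no matching difference. The probes named Psme2b also list transcripts of Psme2, so Psme2 and the near-identical Psme2b cannot be told apart. Their brighter probe had 4.20, 4.11, 4.24 and 4.19 in P. gingivalis muscle and 4.17, 4.26, 4.08 and 4.14 in control muscle. The groups overlapped throughout, and the log2 change was 0.02. Psme3, which encodes the nuclear activator, had 2.77, 2.71, 2.77 and 2.80 in P. gingivalis muscle and 2.69, 2.61, 2.75 and 2.59 in control muscle. Only control 3 lay within the P. gingivalis range, and the fold was 1.07 with an interval of 0.976 to 1.18 (adjusted p = 0.550 by limma). Psme4, the large single-chain activator, had 6.06, 6.05, 6.11 and 6.10 in P. gingivalis muscle and 6.07, 6.24, 6.05 and 5.98 in control muscle. The controls spread to both sides of the P. gingivalis arrays, and the mean log2 change was −0.01.

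The 6 ATPases of the regulatory base, the ring that unfolds substrates, were the class with the smallest changes. Their log2 changes ran from −0.09 to 0.00 with a median of −0.02, and their intervals lay between 0.855-fold and 1.12-fold. By the main scaling 5 were lower and 1 higher, but by the median scaling 2 were lower and 4 higher. All 6 were lower under normexp background correction and on the 4 arrays agreed on, and 5 with the value table's groups. With the mean of all probes of a gene, and with the matched value table, 3 were lower and 3 higher. Psmc5 had 4.52, 4.62, 4.51 and 4.64 in P. gingivalis muscle and 4.60, 4.67, 4.67 and 4.69 in control muscle. Controls 2, 3 and 4 lay above the P. gingivalis arrays and control 1 among them (log2 change −0.09, adjusted p = 0.603 by limma). Psmc6 had 5.26, 5.01, 5.05 and 5.14 in P. gingivalis muscle and 5.22, 5.22, 5.13 and 5.09 in control muscle. The groups overlapped widely, and its probes disagreed in sign (−0.05 and 0.09).

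The 14 Psmd genes encode subunits of the lid, non-ATPases of the base and chaperones that build the base. They split into 6 higher and 8 lower, with a median log2 change of −0.06 and intervals between 0.780-fold and 1.28-fold. The 8 lid genes, whose complex removes the ubiquitin chain, split into 4 higher and 4 lower. The 3 base genes Psmd1 and Psmd2, the scaffolds of the base, and Psmd4, a ubiquitin receptor, were all lower at about 0.91-fold (log2 changes −0.14 each, median −0.14). All 3 kept that direction in each of the 12 alternatives that keep all arrays or the 4 agreed on, but the median of the 3 was −0.06 with the value table's groups, −0.06 with the matched value table and −0.06 with the mean of all probes, and the additional probes of Psmd1 and Psmd2 ranged from −0.07 to 0.04. The base chaperones split, with Psmd9 at 0.17 and Psmd5 at 0.09 against Psmd10 at −0.08.

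Psmd3, a lid subunit, had 5.59, 5.52, 5.53 and 5.66 in P. gingivalis muscle, against 5.75, 5.72, 5.68 and 5.69 in control muscle. No P. gingivalis array reached the controls, and the fold was 0.912 with an interval of 0.831 to 1.001 (adjusted p = 0.449 by limma). Its other tested probe stood at 0.08 and overlapped. The brighter probe stood at −0.01 with the matched value table and near 0 with the value table's groups, and with the median as scale Psmb4 was the only one of the 3 non-overlapping members whose groups still did not overlap. Psmd1 had 5.48, 5.45, 5.36 and 5.52 in P. gingivalis muscle and 5.62, 5.62, 5.52 and 5.60 in control muscle. Control 3 was level with the highest P. gingivalis array, and the fold was 0.910 (interval 0.825 to 1.003, adjusted p = 0.452 by limma). Psmd7, the lid partner of the deubiquitinase, overlapped on its brighter probe (log2 change −0.10), while its dimmer probe had −0.47, −0.29, −0.39 and −0.45 in P. gingivalis and −0.19, −0.17, −0.05 and −0.18 in control muscle. That dimmer probe did not overlap between groups (log2 change −0.25, unadjusted p = 0.0049, adjusted p = 0.323 by limma).

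The inhibitor Psmf1 and the assembly chaperones Psmg1 to Psmg4 split into 1 higher and 4 lower, with a median log2 change of −0.05. Psmg3, a chaperone of the alpha ring, had 1.16, 1.01, 1.09 and 1.18 in P. gingivalis muscle and 1.23, 1.29, 1.24 and 1.18 in control muscle. P. gingivalis 4 and control 4 met at 1.18 after rounding, without crossing (log2 change −0.13, adjusted p = 0.481 by limma). Its second, dimmer probe pointed the same way, with −3.80, −3.54, −3.42 and −3.60 in P. gingivalis and −3.04, −3.22, −3.35 and −3.22 in control muscle. These groups did not overlap either (log2 change −0.38, unadjusted p = 0.00443, adjusted p = 0.323 by limma), but with the value table's groups Psmg3's brighter probe stood at 0.00. Psmg4, its partner, had −0.27, −0.20, −0.21 and −0.24 in P. gingivalis muscle and −0.10, 0.08, −0.17 and −0.26 in control muscle. Control 4 lay among the P. gingivalis arrays (log2 change −0.12, adjusted p = 0.602 by limma). Psmc3ip, the recombinase partner, had −0.48, −0.46, −0.36 and −0.29 in P. gingivalis and −0.28, −0.52, −0.60 and −0.27 in control muscle, with the wider spread in controls.

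Different probes of a gene often disagreed at these small sizes. Of 27 members with more than 1 tested probe, 13 had probes of 1 sign and 14 of both signs. Among the 39 additional probes, 3 had an unadjusted p under 0.05, all lower in P. gingivalis muscle, and 2 had groups that did not overlap. Over all 31649 tested probes, 11.2% had such a p. The 3 were the dimmer probes of Psmd7, Psmg3 and Psmc2, an ATPase, whose dimmer probe stood at −0.28 and its brighter at −0.02.

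Counted by genes above their own mean over 8 arrays, P. gingivalis 1, 2, 3 and 4 had 22, 9, 10 and 28 of the 47 members, and control 1, 2, 3 and 4 had 39, 39, 17 and 13. Among the 14 standard core genes the counts were 6, 2, 3 and 7 in the P. gingivalis arrays and 14, 11, 5 and 2 in the control arrays. Controls 1 and 2 were thus high, and controls 3 and 4 had counts within the range of the P. gingivalis arrays. The order was in part that of all 16037 genes, of which 51.0%, 46.1%, 45.2% and 50.1% lay above their own mean in the P. gingivalis arrays and 58.2%, 53.4%, 46.9% and 49.9% in the control arrays. The core's median distance from the mean was small on every array, from −0.06 to 0.08 on the log2 scale.

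Genes that supply, assemble or regulate proteasomes were taken from 3 lists chosen with earlier results known. Of 14 genes of assembly and regulation 13 were tested, 1 higher and 12 lower, with a median log2 change of −0.10. An unadjusted p under 0.05 was found for 3, all lower and all without overlap between groups, where 10.7% of all genes had such a p (5.83% lower) and 7.06% had no overlap (3.83% with P. gingivalis below control). Akirin2, which carries proteasomes into the nucleus, had 2.91, 2.99, 2.99 and 2.96 in P. gingivalis muscle, against 3.38, 3.25, 3.18 and 3.24 in control muscle. The P. gingivalis arrays lay close together and well below the controls (0.812-fold, unadjusted p = 0.00123, adjusted p = 0.309 by limma), though with the value table's groups the log2 change was −0.04.

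Zfand5, a proteasome-binding protein known from atrophying muscle, had 6.35, 6.31, 6.23 and 6.38 in P. gingivalis muscle and 6.55, 6.53, 6.46 and 6.48 in control muscle. The groups did not overlap (0.879-fold, adjusted p = 0.360 by limma), and its 5 probes ran from −0.22 to 0.09, while the value table's groups gave −0.04 for the brightest. Nfe2l2, the oxidative stress factor NRF2, had 2.41, 2.54, 2.58 and 2.67 in P. gingivalis muscle and 2.73, 2.91, 2.78 and 2.71 in control muscle. Its groups did not overlap (0.851-fold, adjusted p = 0.372 by limma), but its other probe stood at 0.03 and the value table's groups gave 0.04. Nfe2l1, the factor that raises subunit genes when proteasomes fail, stood at −0.10 and the chaperone Pomp at −0.04, neither with an unadjusted p under 0.05.

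Of the 14 genes of ubiquitin supply and delivery, 3 were higher and 11 lower, with a median log2 change of −0.03, and none had an unadjusted p under 0.05 by limma. Uba6, a ubiquitin-activating enzyme, had the lowest (log2 change −0.15, unadjusted p = 0.0881), and the shuttle Ubqln1 stood at 0.10. The ubiquitin gene Ubb stood at −0.05.

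Of the 8 antigen processing and interferon genes, 2 were higher and 6 lower, with a median log2 change of −0.27. Tap2, Irf1 and Nlrc5, 3 of the 8, had an unadjusted p under 0.05 by limma, all lower. Among all genes 10.7% had such a p (5.83% lower). Tap2 had 0.39, 0.49, 0.64 and 0.66 in P. gingivalis muscle and 0.91, 1.19, 0.62 and 0.84 in control muscle. As for Psmb8, control 3 lay among the P. gingivalis arrays (0.788-fold, unadjusted p = 0.0231, adjusted p = 0.392 by limma). Irf1 had 0.71, 0.94, 0.88 and 0.82 in P. gingivalis muscle and 1.16, 1.41, 0.84 and 1.11 in control muscle, again with control 3 low (0.816-fold, unadjusted p = 0.0373, adjusted p = 0.429 by limma). With the value table's groups the log2 changes were −0.06 for Tap2 and −0.14 for Irf1, with unadjusted p-values of 0.757 and 0.360 by limma. Nlrc5 stood at a log2 change of −0.69 (unadjusted p = 0.0484, adjusted p = 0.444 by limma), with a second probe at 0.17, and the change was −0.11 under normexp background correction and 0.06 with the value table's groups. The list's mean centred signal was −0.29 to 0.00 in the P. gingivalis arrays and −0.16 to 0.43 in the control arrays, highest in control 2.

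**Figure D5:**
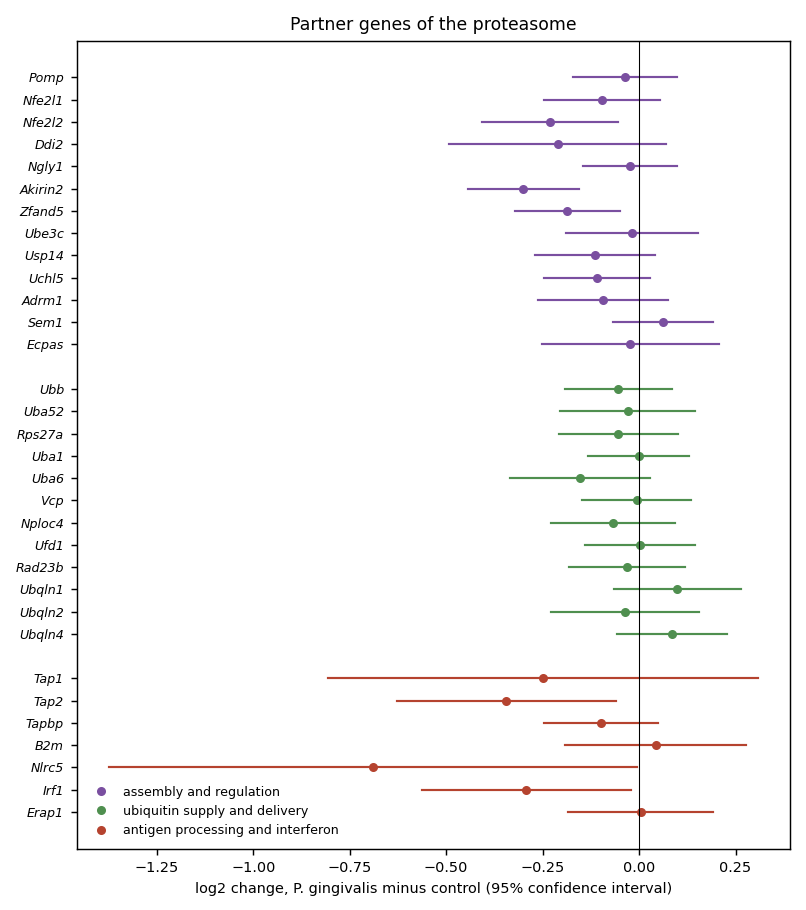
Log2 change of signal (P. gingivalis minus control, x axis) for 32 of the 35 tested partner genes in 3 lists (the other 3 are not named here). Points are limma estimates from 4 arrays each and lines are 95% confidence intervals. Akirin2, Zfand5, Nfe2l2, Tap2, Irf1 and Nlrc5 have intervals that leave out 0, all on the lower side. Among all genes 10.7% had an unadjusted p under 0.05 by limma (5.83% lower), and the lists were chosen with earlier results known.

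In whole muscle, fewer cells of a type and less RNA per cell cannot be told apart, and the immunoproteasome is abundant in leukocytes. Of 8 leukocyte markers 4 were higher and 4 lower, and all were well above background on all 8 arrays. Their mean centred log2 signal ran from −0.09 to 0.24 in the P. gingivalis arrays and from −0.13 to 0.04 in the control arrays. An unadjusted p under 0.05 was found for 2 of the 8, both higher in P. gingivalis muscle without overlap between groups, set against the 10.7% and 7.06% of all genes. Csf1r, the receptor of macrophage growth factor, was 1.28-fold (unadjusted p = 0.0206, adjusted p = 0.384 by limma). Itgam, an integrin chain of myeloid cells, had a log2 change of 0.18 (unadjusted p = 0.0298 by limma), with another probe at −0.58. With the value table's groups Csf1r stood at 0.14 and Itgam at −0.06. The shared leukocyte marker Ptprc stood at −0.09, Cd3e, of T cells, at −0.02 and Cd68, of macrophages, at 0.17. Of 4 endothelial markers, Kdr stood at −0.59 (adjusted p = 0.323 by limma) and the other 3 between −0.05 and −0.01, while the value table's groups put Kdr at 0.18. The 4 fibroblast markers were all higher, with list scores of 0.12 to 0.36 in the P. gingivalis arrays and −0.67 to 0.02 in the control arrays, lowest in control 2. With the value table's groups Col1a1, a collagen chain, stood at −0.01 against 1.01 with the scanner files' groups, and Lum, a matrix proteoglycan, at 0.28 against 0.65. The 6 fast fibre markers were all higher as well, by 0.06 to 0.16. Control 2 was thus both the array with the highest Psmb8 and Psmb9 and the one with the lowest fibroblast signal. The part of cell makeup in these signals was not tested.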

How the data were processed

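Cy3-labelled RNA (200 ng input per sample, per the labels' protocols) was read on Agilent arrays with probe positions on mm9. The authors' deposited processed intensity values are background-subtracted spot signals of Feature Extraction (per the file headers 11.0.1.1, while the submitters' processing notes name 11.1), without normalization between arrays. The authors also deposited a table of log2 values for 24764 probes, 62 of them of member genes, whose scaling is not given in the sources used here. Its columns were matched to arrays by correlation over centred probes (0.833 to 0.880, next best at most 0.0784).

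Intensities were put on the log2 scale less each array's 75th percentile, and spots of a probe were averaged. Probes well above background on at least 4 of 8 arrays entered a linear fit on the 2 groups by limma (version 3.58.1, R version 4.3.3, moderated by eBayes; Benjamini-Hochberg adjustment over 31649 probes, threshold 0.05). A gene is its tested probe of highest mean signal. Values in every array are given for the immunoproteasome genes, Psmb5 to Psmb7, the activators, the 2 members of lowest p per class and members whose groups do not overlap; partner genes are given by counts and lowest p, and some of them, though counted, are not reported here by name. Psmd7, chosen for its dimmer probe, falls outside that rule. Members and lists were chosen with earlier results of these data known. The fit was tested on simulated data with independent arrays and changes larger than those of most members. That test does not show how well the fit finds changes as small as those seen here. The number of arrays limits the precision. If samples shared a mouse, p-values measure only technical spread.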

Additional observations from a re-analysis of the deposited data

Results flagged for a closer look

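Psmb10 in control 3 lay apart from its group: its log2 signal was 2.92, against 3.07 to 3.10 in the other 3 control arrays, and the gap made up 0.866 of the group's range. It was the only one of 38 groups of 4 arrays (19 genes in both groups) in which the highest or lowest array stood off past Dixon's critical value for 4 samples. Chance flags about 1 in 20 such groups. Psmb8 and Psmb9 were also low in control 3, at −0.49 and −1.11.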

How the results depend on the processing

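Across 20 alternatives, 0 proteasome genes passed the adjusted threshold by limma, with a lowest adjusted p of 0.0602 for any member under normexp background correction. The median log2 change stayed below 0 throughout (−0.09 to −0.01). The count of members with an unadjusted p under 0.05 was 1 in the main setting (10.7% of all genes). The share of all genes stands beside each count. It was 0 under quantile normalization (10.8%), 0 without a filter on dim probes (8.24%) and 2 with the strict filter (11.6%). On the 4 arrays whose group is agreed on, the count was 2 (8.1%). It was 3 with the mean of all probes of a gene (10.5%) and 3 with the value table matched to the scanner files (11%). An intensity trend in the variance gave 7 (13.1%) and normexp gave 12 (26.4%). Leaving out 1 array gave 0 to 4, with 4 without control 4 (10.5%). The count of members without overlap was 3 in the main setting (7.06% of all genes). It was 1 with the median as scale (7.21%), 1 with the matched value table (6.9%) and 6 under normexp (15.9%). On the 4 agreed arrays it was 28, where 44.0% of all genes had no overlap. Leaving out 1 array gave 3 to 11, with 11 without control 4 (12.2%), 7 without P. gingivalis 4 (10.9%) and 7 without control 3 (13.3%). The cause was not tested, and the last 2 kinds also had fewer arrays.

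With the replicate number as a block, 2 members (Psmb9 and Psmd9) had an unadjusted p under 0.05, against 9.55% of all genes. Psme1 did not have such a p (unadjusted p = 0.1002 by limma). The replicate number was also the column of the slide, so this block cannot be told apart from the column. Same-numbered arrays correlated at 0.0071 to 0.0628 in their deviations from the group means, and differently numbered ones at −0.130 to 0.134. These values gave no sign that the numbers pair the samples. Slide as a block could not be fitted with 1 slide.

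Of 380 log2 changes of the 19 named genes under alternatives, 349 kept their sign and 31 turned. With the value table's groups these were Psmb6 (−0.0984), Psmb7 (−0.0259), Psmc5 (0.0266), Psme1 (0.0231), Psme2b (−0.0212) and Psmg3 (0.0029), and with the table as labelled Psmb5 (0.0763), Psmb6 (−0.0226), Psmc5 (0.101), Psme1 (0.0106), Psme2b (−0.0814) and Psmg3 (0.0454). With the matched table they were Psma6 (0.0283) and Psme4 (0.0326), on the 4 agreed arrays Psmb6 (−0.0918), under normexp Psmb6 (−0.0389) and Psme2b (−0.0126), with the mean of probes Psmb6 (−0.0221), Psmc6 (0.0208) and Psme4 (0.0399), under quantile normalization Psme4 (0.0031) and with the median as scale Psme4 (0.0147). Leaving out 1 array gave −0.0452 to 0.0369 for Psmb6, −0.0386 to 0.0711 for Psmc3ip, −0.00336 to 0.0570 for Psme2b and −0.0425 to 0.0445 for Psme4. Psmb8 and Psmb9 kept their sign in all 20.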
